A study of Rattus norvegicus with 48 samples.

Results

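The advanced hepatocellular carcinomas (aHCC) were the 9 samples titled aHCCs, sample numbers 28 to 36, of the 48 samples in the series, and they were read against the 10 samples titled Control (11 to 14, 25 to 27 and 46 to 48). Membership was set by title alone, while the comparison was chosen with earlier results of these data known. The series measured messenger RNA in microdissected liver lesions of male F-344 rats on single-colour Illumina arrays, 1 array per sample, and dated the aHCC to 14 months. The protocol was diethylnitrosamine (DENA) at 150 mg/kg, 2 weeks of recovery, 0.02% 2-acetylaminofluorene (2-AAF) in the diet for 1 week, partial hepatectomy and 1 more week of 2-AAF, before a return to basal diet. DENA is an alkylating liver carcinogen, and 2-AAF blocks the division of normal hepatocytes, so that initiated cells regrow the liver after surgery. The comparison asks which genes separate the carcinomas at the end of this sequence from control liver, with NRF2 activation named in the title of the series. Early carcinomas (eHCC, 5 samples, 10 months, the same protocol) served as the nearest other lesion.

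The same treatment text stands on every sample, controls included, so the labels do not say whether the control rats received DENA, 2-AAF and surgery, and they do not give the age of the controls. No group is labelled as treated liver without a lesion. Tumour, treatment and age therefore cannot be told apart in any comparison with control. The labels tie no lesion to an animal, so several carcinomas may come from 1 rat, and the p-values measure the spread between captured samples and may be too small. Each sample was a region taken by laser from a stained frozen section, so fewer cells of a type and less RNA per cell cannot be told apart.

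Hepatocytes make most plasma proteins and carry out drug oxidation, bile acid synthesis, fatty acid oxidation and ammonia disposal. The transcription factor NRF2, held down by KEAP1 until electrophiles or oxidants modify KEAP1, turns on glutathione transferases, quinone reductases and enzymes of glutathione synthesis through the antioxidant response element. In rat liver the placental glutathione transferase Gstp1 has long marked preneoplastic foci, and a set of liver genes is kept in a male or female pattern by the timing of growth hormone release.

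Between 8689 and 10287 of 22523 probes were detected per aHCC and between 8323 and 9682 per control. Values below are log2 intensities as deposited, with background still in them, so that the folds of dim genes are understated, and no probe exceeded 15.54. Sample 29 stood apart: its log2 intensities correlated with those of the other 8 aHCC at r = 0.82 to 0.83 over 13479 features, while those 8 correlated with each other at 0.96 to 0.99. Samples 28 and 30 were the most alike, with a single feature differing by more than 1 log2 unit, against 11 to 295 features between any 2 controls, and the labels do not say whether they share a lesion or an animal. Controls 25 to 27, whose numbers run on into those of the aHCC, differed from the other 7 controls in 206 of 13479 features (1.53%). Every result was therefore also read against controls 25 to 27 alone and without sample 29.

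At an adjusted p under 0.05 (limma over 13479 features, 9273 of them named genes) 5120 features differed between aHCC and the 10 controls (38.0%), 2592 higher (19.2%) and 2528 lower (18.8%). Differences beyond 1 log2 unit, or 2-fold, were fewer, with 423 features higher and 466 lower. Against controls 25 to 27, 1935 features passed (14.4%), 982 higher (7.29%) and 953 lower (7.07%). Without sample 29, 5682 features passed (42.2%), 20.9% of all features higher and 21.3% lower, and with both restrictions 2411 did (17.9%), 8.86% higher and 9.03% lower. In 1161 features (8.61%) no aHCC overlapped any control, 619 of them higher (4.59%) and 542 lower (4.02%). With so large a share of features called, the count of a gene list is read beside these shares.

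The rises that passed under all 3 readings were led by detoxifying enzymes. Gstp1, the placental glutathione transferase, lay between 8.14 and 9.90 in controls (median 8.98) and between 14.74 and 15.54 in aHCC (median 15.51). Every aHCC was thus far above every control. The fitted rise was 71.3-fold (6.16 ± 0.39 SE, adjusted p = 5.88e-16 by limma) and 5.43 on the log2 scale against controls 25 to 27, which were the 3 controls with the most Gstp1. A second Gstp1 probe was higher by 5.32. Because the highest aHCC were at the ceiling of the scale, the rise may be understated.

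Akr1b8, an aldo-keto reductase of lipid aldehydes, rose from 7.56 ± 0.19 (SD, n = 10) to 13.23 ± 0.34 (SD, n = 9). Gpx2, a glutathione peroxidase best known from gut epithelium, rose from 7.60 ± 0.29 (SD, n = 10) to 12.22 ± 0.33 (SD, n = 9), and its aHCC spanned only 11.74 to 12.76. Both genes were alike in all 9 carcinomas, sample 29 included, at 13.78 and 12.76. Akr7a3, the aflatoxin aldehyde reductase, rose by 4.23 ± 0.30 SE (adjusted p = 1.7e-14 by limma). Gsta3, an alpha-class glutathione transferase, rose by 4.57, and Nqo1, the quinone reductase most used as a readout of NRF2, by 3.73. Probes of near-identical relatives in the glutathione transferase, aldo-keto reductase, Cyp2c, Ugt and lipocalin families may bind each other's transcripts, so these values stand for probes.

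Other large rises had other roles. Defb1, a beta-defensin of epithelial surfaces, was detected in 0 of 10 controls and 9 of 9 aHCC, from 11.37 to 15.06 (median 12.38), at least 38.0-fold higher (adjusted p = 7.18e-08 by limma). Car2, a cytosolic carbonic anhydrase, rose by 4.08, from 8.29 ± 0.37 (SD, n = 10) to 12.38 ± 1.82 (SD, n = 9), with sample 29 at 8.43 inside the range of the controls. Cryab, a small heat shock protein, rose by 3.54, and there too sample 29, at 8.06, was the lowest. Fabp4, a fatty acid carrier of adipocytes and macrophages, rose by 3.42 with aHCC between 9.03 and 12.00. Ugt2b7, a glucuronosyltransferase, rose by 3.99 but spanned 7.95 to 13.53. Akr1b8, Gpx2 and Nqo1 thus varied less among the 9 carcinomas than Car2, Cryab and Ugt2b7 did, and for Gstp1, which reached the highest intensity of the table, such spread cannot be read.

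**Figure D1:**
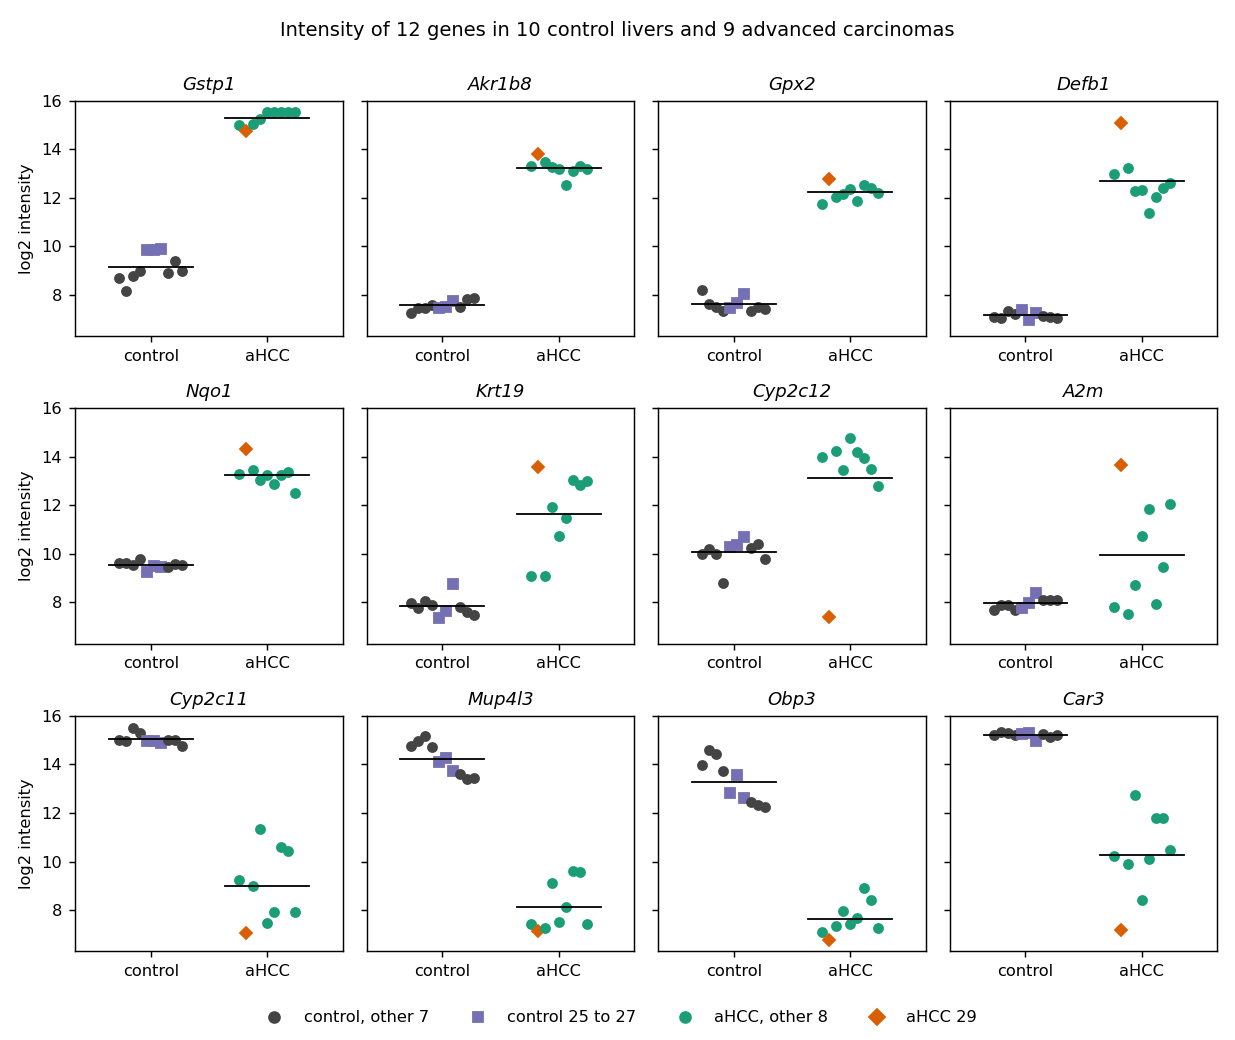
Log2 intensity of 12 genes in each of the 10 control livers and 9 advanced carcinomas (aHCC), 1 point per array, with the mean of each group as a line. Squares are controls 25 to 27 and the diamond is aHCC 29; Gstp1, Akr1b8, Gpx2, Defb1 and Nqo1 are high in all 9 aHCC, while Cyp2c12 in aHCC 29 lies at 7.41, below every control.

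Among 12 measured markers of rat liver foci all 12 rose and 0 fell (median difference 2.85, against −0.01 over all features), and 10 rose against controls 25 to 27. Besides those named, the list holds the efflux pump Abcc3 (7.87 ± 0.18 SD to 11.08 ± 0.60 SD), the aldehyde dehydrogenases Aldh1a1 (+2.50) and Aldh3a1 (+1.83), and the epoxide hydrolase Ephx1 (+1.53). Its smallest rise was that of the transferrin receptor Tfrc, at 0.27. The list was drawn up from knowledge of this model and shares members with the next.

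Of 36 measured NRF2 targets 27 rose and 1 fell, with a median difference of 1.09. Against controls 25 to 27, 20 rose and 1 fell, and without sample 29 the counts were 26 and 1. Both subunits of the enzyme that limits glutathione synthesis rose, Gclc by 2.34 and Gclm by 2.20. Glutathione reductase Gsr (+1.37), thioredoxin reductase Txnrd1 (+1.87) and the UDP-glucose dehydrogenase Ugdh (+1.66) also rose. The ferritin heavy chain Fth1 was the member that fell, by 0.33, while the light chain Ftl1 rose by 0.78. The 8 members that did not pass were Gstm2 (−0.48), Sqstm1 (−0.25), Gsta5 (−0.17), Me1 (0.13), Ces1d (0.15), the cystine carrier Slc7a11 (0.23), Gsta1 (0.62) and Ugt1a7c (0.71). The transcript of NRF2 itself, Nfe2l2, was 11.39 ± 0.12 (SD, n = 10) in controls and 11.23 ± 0.49 (SD, n = 9) in aHCC, a difference of −0.16 ± 0.17 SE that did not pass (adjusted p = 0.466 by limma). Keap1 differed by 0.22 ± 0.11 SE (adjusted p = 0.0937 by limma). Its difference was 0.087 against controls 25 to 27 (adjusted p = 0.772 by limma) and 0.15 without sample 29 (adjusted p = 0.243 by limma). It passed only without sample 36 among these readings (0.30, adjusted p = 0.0129 by limma), an omission chosen after seeing the data.

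The promoters of 6 NRF2 targets that rose are shown because each holds the core of the antioxidant response element. The letters searched were TGACNNNGC, on both strands, in the 250 bases before the start of each gene (RefSeq, GRCr8). They stood in 3373 of 33469 promoters (10.1%), and in 9 of the 30 NRF2 targets whose promoter was given (30.0%). Of the 22 that were higher in aHCC 8 held them, and of the 8 that were not higher 1 did, Me1. A match describes the letters and shows no binding. Each run below reads 5′ to 3′ in the direction of the gene, and capitals mark the match, which for Gpx2, Ephx1, Gclm and Txnrd1 is on the opposite strand.
Gstp1, chr1:210769713-210769811, minus strand: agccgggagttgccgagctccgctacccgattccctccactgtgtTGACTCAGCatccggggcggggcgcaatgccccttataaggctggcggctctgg
Gpx2, chr6:101230034-101230091, minus strand: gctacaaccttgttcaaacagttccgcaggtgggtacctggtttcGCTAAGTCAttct
Gsta3, chr9:31154927-31154988, plus strand: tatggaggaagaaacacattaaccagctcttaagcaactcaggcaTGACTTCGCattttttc
Ephx1, chr13:95263121-95263219, minus strand: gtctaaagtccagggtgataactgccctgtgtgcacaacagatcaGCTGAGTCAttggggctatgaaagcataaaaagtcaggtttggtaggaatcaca
Gclm, chr2:213031918-213032016, plus strand: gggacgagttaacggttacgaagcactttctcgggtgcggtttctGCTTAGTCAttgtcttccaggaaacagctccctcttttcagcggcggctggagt
Txnrd1, chr7:22755929-22756027, minus strand: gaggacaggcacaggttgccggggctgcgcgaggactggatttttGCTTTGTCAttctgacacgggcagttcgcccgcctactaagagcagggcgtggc
Counted in bases from the start of the gene, the match began at −61 in Gstp1, −13 in Gpx2 and −17 in Gsta3. It began at −57 in Ephx1, −78 in Txnrd1 and −172 in Gclm. Prdx1 (−135) and Ugdh (−207), which also rose and held a match, are not shown. Whether position goes with the size of the rise was not tested.

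Genes of cell division rose together. Of 40 measured cell cycle genes 33 rose and 0 fell, 26 and 0 against controls 25 to 27, with a median difference of 0.72. Cdk1, the kinase that drives entry into mitosis, lay between 7.21 and 8.30 in controls (median 7.68) and between 8.02 and 11.41 in aHCC (median 10.53), a 5.63-fold rise (adjusted p = 1.56e-09 by limma). The lowest aHCC was sample 29, which overlapped the controls, and the other 8 did not. Its partner cyclin Ccnb2 rose by 2.06 and the midzone protein Prc1 by 1.74. The replication clamp Pcna (+1.14) and the ribonucleotide reductase subunit Rrm2 (+1.31) rose as well, while the licensing factors Mcm4 (0.09) and Mcm5 (0.02) and the G1 cyclins Ccne1 (0.09), Ccne2 (0.18) and Ccnd1 (0.63) did not pass. In single carcinomas the list's median ran from 0.35 to 1.36 without sample 29, highest in sample 36, and was 0.08 in sample 29.

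Targets of p53, the factor that answers DNA damage, were divided. Of 15 measured, 6 rose and 5 fell, and against controls 25 to 27, 3 rose and 2 fell. The death receptor Fas (+0.48) and the stress kinase-like Trib3 (+0.63) were among those that rose. Ei24 (−0.82), Sesn1 (−0.66) and Phlda3 (−0.49) fell. Mdm2, which encodes the ligase that degrades p53, rose by 0.75 ± 0.27 SE (adjusted p = 0.023 by limma), but that call rested on sample 36, where it reached 12.47. Without that sample the difference was 0.37 (adjusted p = 0.0637 by limma).

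Keratin 19, a keratin of bile ducts and hepatic progenitor cells, rose to different levels in different tumours. Krt19 lay between 7.38 and 8.76 in controls (median 7.78) and between 9.08 and 13.59 in aHCC (median 11.91), a rise of 3.80 ± 0.72 SE (adjusted p = 3.46e-05 by limma). No aHCC overlapped a control. Samples 28 and 30 were lowest, at 9.1, and sample 29 highest. Of 15 measured biliary and progenitor markers 9 rose and 1 fell (6 and 0 against controls 25 to 27). Cd24 (+2.33), the galectin Lgals3 (+1.61), osteopontin Spp1 (+1.44) and the adhesion molecule Epcam (+1.18) rose with it. The biliary keratin Krt7 (0.35), Prom1 (0.56), Sox4 (0.39) and Cldn4 (0.11) did not pass, and Onecut1, a factor of liver and duct development, fell by 1.86 against all controls. Onecut1 ranged from 9.18 to 12.93 among the controls themselves, and against controls 25 to 27 its difference was −0.71 (adjusted p = 0.505 by limma).

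Afp, the fetal albumin relative used as a tumour marker, was not higher as a group. It lay between 10.69 and 11.13 in controls and between 9.00 and 13.94 in aHCC (median 10.49), a difference of −0.11 ± 0.29 SE (adjusted p = 0.805 by limma). Sample 36 alone was above the controls. Without sample 36 Afp was lower in aHCC than in control by 0.51 (adjusted p = 0.0322 by limma). Without sample 29, the lowest, the difference was 0.11 (adjusted p = 0.781 by limma). The group value thus depends on samples 29 and 36, and the −0.51 still includes sample 29.

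Calcium-binding S100 proteins and annexins, which link calcium to membranes and the cytoskeleton, were higher in most cases. Of 18 measured 14 rose and 0 fell, and 7 rose against controls 25 to 27, with a median difference of 0.94. Anxa2 rose from 8.17 ± 0.20 (SD, n = 10) to 11.26 ± 0.88 (SD, n = 9), S100a6 from 8.28 ± 0.50 (SD, n = 10) to 11.27 ± 1.60 (SD, n = 9) and S100a11 by 2.93. Sample 29 was the highest for all 3, at 13.34, 14.98 and 13.40. Its median over the list was 2.14, against 0.45 to 1.15 in the other 8.

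The extracellular matrix list was mixed, with 9 of 28 members higher and 6 lower. Mmp12, a macrophage elastase, rose from 7.65 ± 0.48 (SD, n = 10) to 10.14 ± 0.83 (SD, n = 9), the small proteoglycan Dcn by 1.61 and the collagen crosslinker Lox by 1.38. Fibronectin Fn1 (−0.86), Tgfbi (−1.11) and Col18a1 (−0.81) fell. The fibrillar collagens Col1a1 (0.11) and Col3a1 (0.06) did not pass, and Col1a2 rose by 0.73. Against controls 25 to 27, 5 members rose and 1 fell; Dcn (0.97, adjusted p = 0.175 by limma) and Fn1 (−0.44, adjusted p = 0.188 by limma) were not among them.

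**Figure D2:**
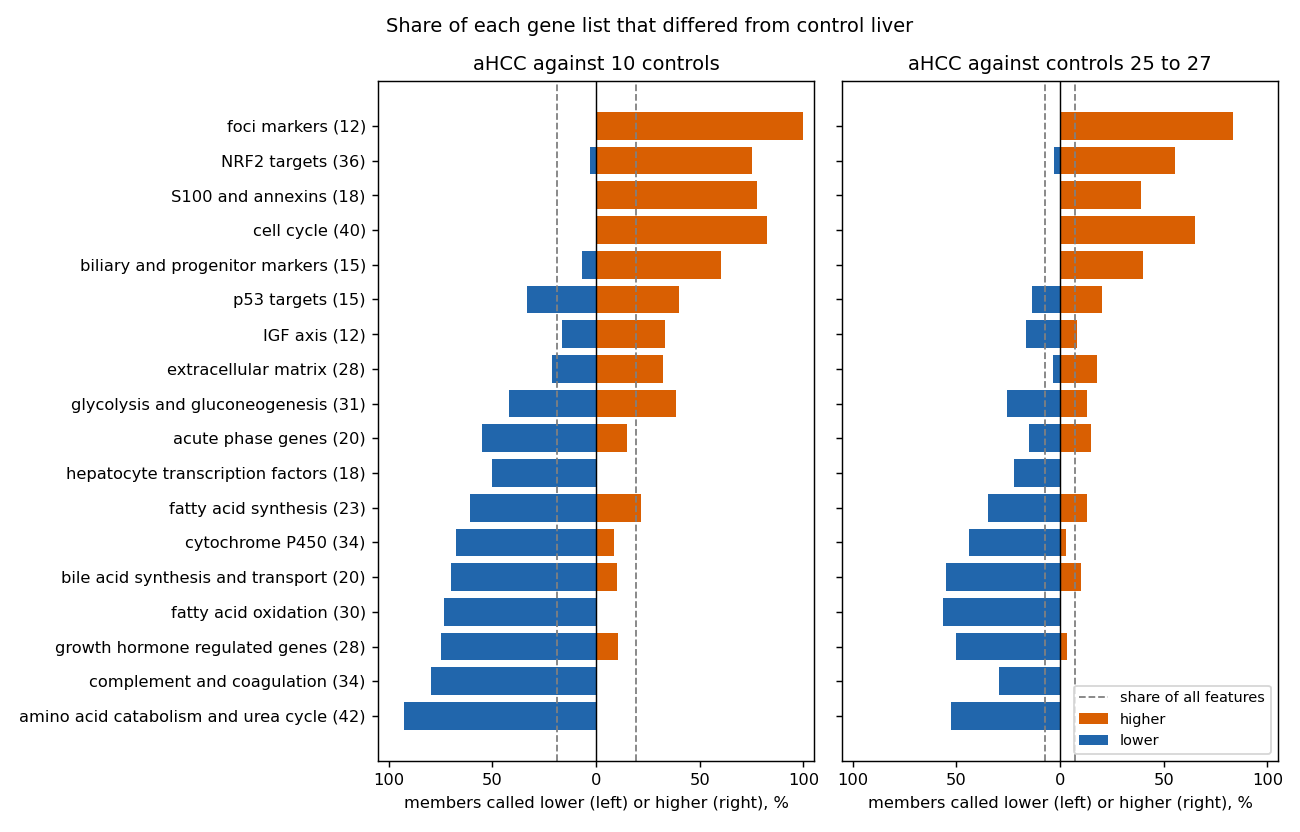
Percentage of the tested members of 18 gene lists (number of members in brackets) called lower (left) or higher (right) in 9 aHCC, against 10 controls and against controls 25 to 27. Dashed lines give the share of all features called in that direction. Lists of foci markers, NRF2 targets and cell cycle genes lie far to the right, and most of those of hepatocyte metabolism to the left. The lists of fatty acid synthesis and of glycolysis and gluconeogenesis exceed the dashed lines on both sides.

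The deepest falls were in genes that growth hormone keeps high in male rat liver. Cyp2c11, the main male cytochrome P450 and a steroid hydroxylase, lay between 14.77 and 15.51 in controls (median 14.99) and between 7.06 and 11.34 in aHCC (median 9.00). That is a 65.9-fold fall (−6.04 ± 0.59 SE, adjusted p = 8.74e-11 by limma), and it was 5.80 on the log2 scale without sample 29, its lowest carcinoma. The urinary lipocalins Mup4l3 and Obp3, which carry pheromones, fell by 6.09 and 5.63 on the log2 scale. Car3, a carbonic anhydrase of male liver, fell from 15.22 ± 0.10 (SD, n = 10) to 10.29 ± 1.73 (SD, n = 9). None of these 4 genes overlapped between groups. Other large falls were those of Dhrs7l1 (−4.65), Hao2, a peroxisomal hydroxy acid oxidase (−3.64), Aox3, an aldehyde oxidase (−3.58), the vasopressin receptor Avpr1a (−3.27), the muscle adaptor gene Stac3 (−4.58) and the gene annotated as an olfactory receptor, Olr59 (−3.78).

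Of 28 measured genes regulated by growth hormone 21 fell and 3 rose, and 14 fell and 1 rose against controls 25 to 27, with a median difference of −1.86. The receptor Ghr fell by 1.24 and Socs2, a feedback inhibitor of its signal, by 0.81, whereas the inhibitor Cish (−0.15) did not pass. The 3 that rose, Cyp2c12, Sult2a6 and A1bg, are genes of the female pattern in rat liver. Cyp2c12 lay between 8.80 and 10.70 in controls (median 10.21) and between 7.41 and 14.79 in aHCC (median 13.94), a rise of 3.07 ± 0.65 SE (adjusted p = 0.000156 by limma). All 8 aHCC other than sample 29 were at 12.80 or above. Sult2a6 rose by 1.30 against all controls, with 0.27 against controls 25 to 27 (adjusted p = 0.787 by limma). A1bg rose by 0.76, a call that rested on sample 32 at 11.30; without it the difference was 0.37 (adjusted p = 0.196 by limma), and without sample 36 it was 0.77 (adjusted p = 0.0593 by limma).

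Of 34 measured cytochrome P450 genes 23 fell and 3 rose (15 and 1 against controls 25 to 27), with a median difference of −1.18. Cyp3a2, a male-enriched steroid and drug oxidase, fell 10.5-fold, from 14.59 ± 0.36 (SD, n = 10) to 11.19 ± 1.76 (SD, n = 9). Cyp2c7, a retinoid hydroxylase, fell by 3.35 at its brightest probe, with −0.71 at its other probe. Cyp1a2 (−2.52) and Cyp7a1 (−1.34) fell, and Cyp2e1 (−0.98), Cyp27a1 (−0.14) and Cyp1a1 (0.28) did not pass. Besides Cyp2c12 the retinoic acid hydroxylase Cyp26a1 (+0.92) and Cyp2c24 (+0.26) rose. In sample 29 the list's median was −3.62, and in the other 8 it ran from −1.51 to −0.70.

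Bile acid genes were lower from synthesis to uptake. Of 20 measured 14 fell and 2 rose, and 11 fell and 2 rose against controls 25 to 27. Slc27a5, which activates bile acids for conjugation, fell from 14.58 ± 0.14 (SD, n = 10) to 11.55 ± 1.63 (SD, n = 9), an 8.20-fold fall (adjusted p = 1.03e-05 by limma). The sterol 12-alpha-hydroxylase Cyp8b1 fell by 2.68, the conjugating enzyme Baat by 1.70, and the uptake carriers Slco1b2 and Slc10a1 by 2.31 and 1.56 on the log2 scale. The rises were in export, with the basolateral pump Abcc3 9.26-fold higher and the sterol transporter Abcg5 1.92-fold higher. The nuclear bile acid receptor Nr1h4 fell by 1.00, and its target Nr0b2 (0.08) did not pass.

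Of 42 measured genes of amino acid breakdown and the urea cycle 39 fell and 0 rose, with a median difference of −1.07, and 22 and 0 did so against controls 25 to 27. Without sample 29, 34 fell. The ornithine aminotransferase Oat lay between 11.81 and 13.76 in controls (median 12.82) and between 8.32 and 11.31 in aHCC (median 10.61), a 5.77-fold fall (adjusted p = 4.91e-06 by limma). Agxt, which clears glyoxylate, fell by 2.40 and Gnmt, the glycine methyltransferase that disposes of surplus methyl groups, by 2.31. The urea cycle enzymes Cps1 (−1.24), Otc (−1.08), Ass1 (−1.37) and Asl (−0.61) fell, and arginase Arg1 (−0.34) did not pass.

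Of 30 measured genes of fatty acid oxidation 22 fell and 0 rose (17 and 0 against controls 25 to 27), with a median difference of −0.59. Angptl4, a lipase inhibitor induced by PPAR-alpha, fell by 2.64 at its brightest probe, with −0.36 at its other probe. Cyp4a2 (−2.80) and Cyp4a3 (−2.33), fatty acid omega-hydroxylases, also fell. The mitochondrial gatekeeper Cpt1a (−2.04) and the acyl-CoA synthetase Acsl1 (−2.23) fell, while Ppara itself differed by 0.02 and did not pass.

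Fatty acid synthesis and storage genes moved in both directions, with 14 of 23 lower and 5 higher (8 and 3 against controls 25 to 27). The desaturases Fads2 (−2.32) and Fads1 (−2.22), the lipogenic regulator Thrsp (−2.18), the citrate lyase Acly (−1.81) and the liver desaturase Scd (−1.73) fell. Fabp4 (+3.42), the desaturase Scd2 (+2.45), the lipoprotein lipase Lpl (+2.02) and the fatty acid translocase Cd36 (+1.41) rose. Scd was 7.81 in sample 29 and between 13.12 and 14.96 in the other 8, and its fall was 1.03 without that sample. Scd2 had the opposite order, with sample 29 the highest at 12.01.

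Sugar metabolism genes moved both ways. Of 31 measured 12 rose and 13 fell, and against controls 25 to 27, 4 rose and 8 fell. The last step of glucose release, G6pc1, fell 6.87-fold, from 13.20 ± 0.60 (SD, n = 10) to 10.42 ± 1.17 (SD, n = 9). Pck1 (−2.17) and Fbp1 (−1.25) of gluconeogenesis, the liver pyruvate kinase Pklr (−2.36), the glycogen-targeting phosphatase subunit Ppp1r3b (−2.49) and the liver glucose carrier Slc2a2 (−1.53) fell. Akr1b1, an aldose reductase, rose by 2.16, aldolase Aldoa by 1.34 (1.49 at its other probe) and the lactate exporter Slc16a3 by 1.14. Eno1 (+0.50), Gpi (+0.84) and Pfkp (+0.97) rose less, hexokinase Hk2 (0.12) did not pass, and lactate dehydrogenase Ldha fell by 0.90.

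Among genes of blood proteins, those of complement and coagulation were lower most often. Of 34 measured 27 fell and 0 rose (10 and 0 against controls 25 to 27), with a median difference of −0.94. Without sample 29, 23 fell and 1 rose, the bradykinin precursor Kng1 (1.12, adjusted p = 0.0110 by limma). The terminal complement component C6 lay between 11.41 and 12.82 in controls (median 12.56) and between 7.38 and 11.85 in aHCC (median 10.45), a 4.56-fold fall (adjusted p = 2.42e-05 by limma). The contact factors F11 (−1.71) and F12 (−1.48), the lectin Mbl2 (−1.47) and plasminogen Plg (−1.45) fell. Fibrinogen chains fell less, Fgb by 0.39 and Fgg by 0.35, and prothrombin F2 by 0.28.

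Of 20 measured acute phase genes, whose products rise in blood during inflammation, 11 fell and 3 rose, 3 fell and 3 rose against controls 25 to 27, and 9 fell and 5 rose without sample 29. Lbp, which presents bacterial lipopolysaccharide, lay between 9.16 and 10.20 in controls (median 9.63) and between 10.69 and 14.03 in aHCC (median 11.59), a rise of 2.35 ± 0.31 SE (adjusted p = 5.2e-08 by limma). A2m, a protease inhibitor and the classical acute phase protein of the rat, lay between 7.68 and 8.40 in controls (median 7.94) and between 7.52 and 13.65 in aHCC (median 9.48). Samples 28 and 34 were within the range of the controls, sample 30 was below it, and samples 29, 33 and 36 were at 11.84 or above. The mean rise was 2.01 ± 0.45 SE (adjusted p = 0.00032 by limma), and without sample 29 against controls 25 to 27 it was 1.45 (adjusted p = 0.0510 by limma). Apcs (−1.23), Crp (−1.23) and Saa4 (−1.18) fell, and the signal transducer Stat3 (−0.22) and Orm1 (−0.10) did not pass.

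Among 18 measured transcription factors of hepatocyte identity 9 fell and 0 rose, and 4 and 0 against controls 25 to 27. Cebpa, which drives metabolic genes in mature hepatocytes, fell from 9.28 ± 0.53 (SD, n = 10) to 8.04 ± 0.34 (SD, n = 9), 2.36-fold (adjusted p = 6.89e-06 by limma). Foxa3 (−0.93), Foxa1 (−0.75), the xenobiotic receptor Nr1i2 (−0.59) and Rxra (−0.50) fell. Hnf4a (−0.03), Prox1 (0.01) and Nr1i3 (0.29) did not pass. The list's median in sample 29 was −0.30, within the −0.53 to −0.29 of the other 8.

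In the insulin-like growth factor (IGF) axis, binding proteins moved and receptors did not pass. Of 12 measured members 4 rose and 2 fell (1 and 2 against controls 25 to 27). Igfbp1, an inhibitor of IGF action, lay between 8.99 and 11.50 in controls (median 10.04) and between 10.47 and 15.18 in aHCC (median 12.39), a rise of 1.95 ± 0.44 SE (adjusted p = 0.000366 by limma). Igfbp2 rose by 1.93 against all controls, yet controls themselves spanned 7.71 to 10.94 and against controls 25 to 27 the difference was 0.74 (adjusted p = 0.334 by limma). Igfbp3 rose by 1.07, and Igfals, which keeps IGF in the circulation under growth hormone, fell by 1.96. Igf2, the fetal growth factor, was between 7.27 and 8.21 in 8 aHCC and 11.66 in sample 36.

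Some of the 112 named genes were added after seeing the data. Of the 112, 100 passed against 10 controls, and 28 of these did not pass against controls 25 to 27 (limma). Each of these 28 kept its direction. They were A1bg, Apoa2, C6, Col18a1, Crp, Cyp26a1, Cyp2c24, Dcn, Fas, Fn1, Igfbp2, Igfbp3, Klf5, Lims1, Mdm2, Onecut1, Pbsn, Phlda3, Plek2, Pon1, Saa4, Scd, Serpind1, Slco1b2, Spink1l, Spmip7, Sult2a6 and Vtn. Among the other genes given with values, those that passed against 10 controls and not against controls 25 to 27 were the foci markers Aldh3a1 and Tfrc, the metabolic enzymes Cps1, Cyp7a1, Eno1, Fbp1, Gpi, Ldha, Pck1 and Pfkp, the fatty acid carrier Cd36, the blood proteins F2, Fgb and Plg, the regulators Foxa3, Nr1i2, Rxra and Socs2, the collagen Col1a2, the cell type markers Alas2, Cd3d, Epcam, Marco, Plvap, Ppbp, S100a8 and Slc4a1, and Cdh1, Fst, Gjb1, Heph, Hspa5, Spint1, Tap1, Tap2 and Tff3.

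Markers of other cell types were read beside these lists, since a captured region can hold stroma, ducts and blood. Of 9 hepatocyte markers 4 fell and 0 rose, and 0 passed against controls 25 to 27; Alb (−0.24), Tf (−0.14) and Serpina1 (−0.06) did not pass. Of 4 bile duct markers Krt19 and Epcam rose. Of 10 macrophage markers 1 fell, the scavenger receptor Marco (−1.26), and 0 rose, while without sample 29, 3 rose and 1 fell. Among 7 endothelial markers Plvap rose (+0.74), among 8 of stellate cells and fibroblasts Dcn rose, among 13 of lymphocytes Cd3d rose (+0.38), and among 4 of neutrophils S100a8 rose (+0.69). With all 9 aHCC, the rises in the endothelial, stellate and lymphocyte lists were no more frequent than over all features (19.2%). Without sample 29, 5 of the 13 lymphocyte markers and 2 of the 4 neutrophil markers rose. Of 8 blood markers the haemoglobin chaperone Ahsp (+1.23) and Alas2 (+0.24) rose, Slc4a1 (−0.22) and Ppbp (−0.14) fell, and the globins did not pass.

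The summed position of each marker list varied by tumour. In the 8 aHCC other than sample 29 the median over the hepatocyte markers ran from −0.45 to −0.03 relative to the control mean (controls −0.37 to 0.23), and that over the bile duct markers from 0.00 to 1.06 (controls −0.14 to 0.31). Macrophage markers ran from −0.18 to 0.91 (controls −0.35 to 0.31), endothelial markers from −0.20 to 0.36, markers of stellate cells and fibroblasts from −0.20 to 0.37 and those of lymphocytes from −0.12 to 0.32. In sample 29 the hepatocyte median was −3.10, the bile duct median 1.69, the macrophage median −1.25 and the stellate and fibroblast median 0.42. The part of these shifts in the results for other genes was not tested.

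**Figure D3:**
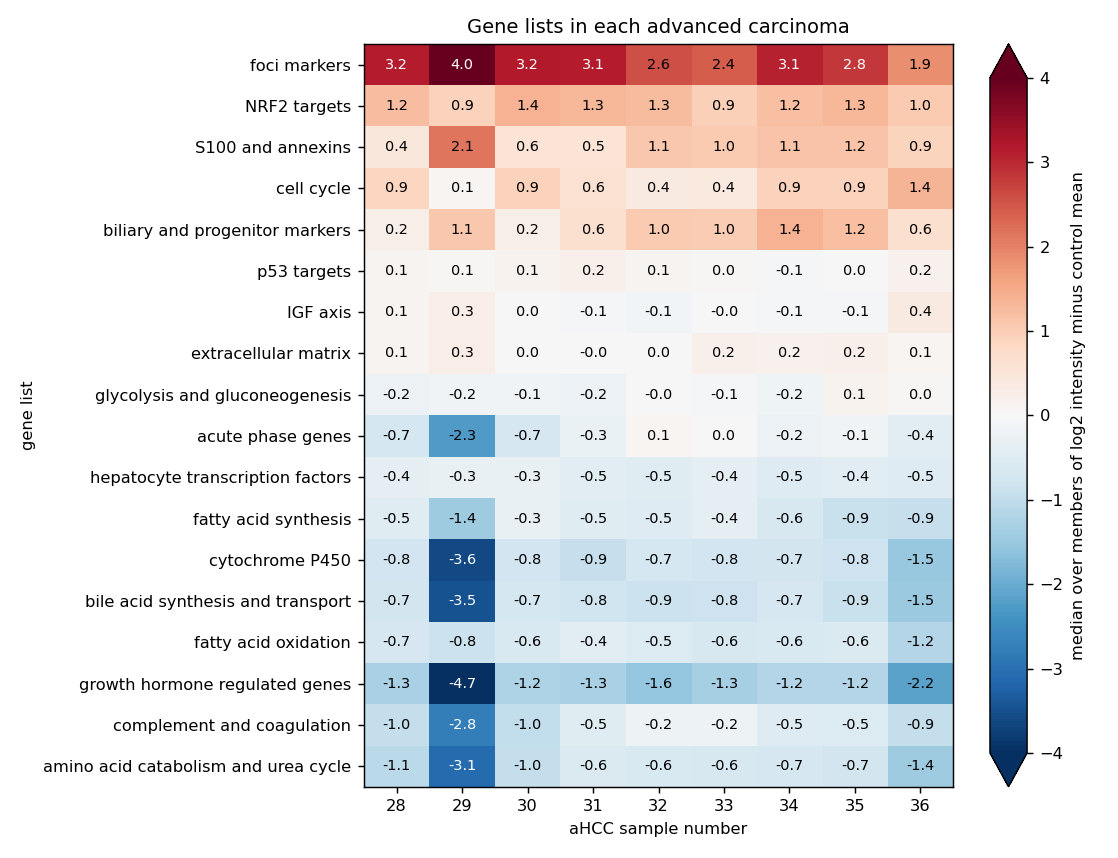
Median over the members of 18 gene lists (vertical axis) of log2 intensity minus the control mean, in each of the 9 aHCC (horizontal axis, sample number), printed in each cell and coloured up to 4 in either direction. Foci markers are positive in all 9, from 1.86 in sample 36 to 4.04 in sample 29, and sample 29 has the lowest medians of growth hormone regulated genes (−4.67) and cytochrome P450 genes (−3.62).

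Sample 29 differed from the other carcinomas in many features: 218 were more than 2 log2 units above all of the other 8 aHCC and 300 were as far below. Samples 31, 33, 34 and 35 each had 0 such features. Samples 28 and 30 also had 0 each, but their likeness to each other left almost no room for any. Taken as a pair, they had 3 features as far above the other 7 aHCC and 0 as far below. Tff1, a trefoil peptide of gastric mucus cells, was 13.98 in sample 29 and at most 7.36 in the other 8. Gkn2, a gastric peptide that binds it, was 12.60, the epithelial membrane gene Ms4a8 13.09, the epithelial factor Klf5 12.76, Prap1, a gene of gut epithelium, 13.09 and the pleckstrin family gene Plek2 14.00. In the other 8 aHCC these 5 genes did not exceed 9.05. Secreted products of hepatocytes were low in sample 29, with the protease inhibitors Serpina3c at 8.23 and Serpind1 at 7.22, paraoxonase Pon1 at 7.75, Apoa2 at 7.82, vitronectin Vtn at 8.59 and vitamin D-binding protein Gc at 8.98. The lowest of the other 8 was 13.11 for Serpind1 and higher for the rest.

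Sample 29 nonetheless carried the shared marks of the group. Its Gstp1 was 14.74, Gpx2 12.76, Akr1b8 13.78, Nqo1 14.31 and Defb1 15.06, all above the other 8 carcinomas except Gstp1, which was the lowest of the 9. Of the genes high in sample 29, Tff1, Klf5 and Ms4a8 were also high in a single early carcinoma, sample 39, at 11.79, 10.54 and 10.97, where the other 4 eHCC did not exceed 7.79. Among the named genes, calls that rested on sample 29 were Klf5 (0.98 with it, 0.42 without, adjusted p = 0.168 by limma) and Vtn (−1.25 with it, −0.56 without, adjusted p = 0.0940 by limma). The 12 largest rises and falls had to pass without sample 29 to be named, so they could not be among these. Over all features, 4709 of the 5120 calls passed in the same direction without sample 29 (92.0%).

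**Figure D4:**
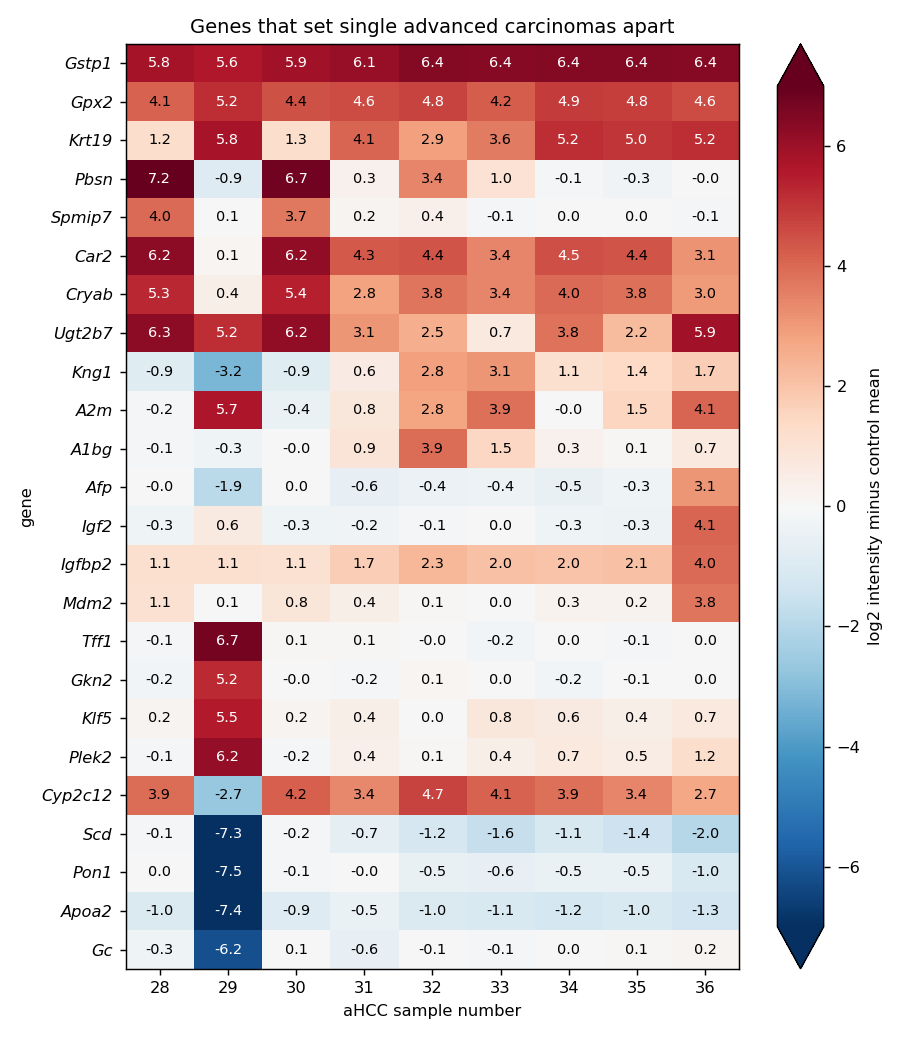
Log2 intensity minus the control mean of 24 genes (vertical axis) in each of the 9 aHCC (horizontal axis, sample number), printed in each cell and coloured up to 7 in either direction. Gstp1 and Gpx2 are high in every tumour; Tff1, Gkn2, Klf5 and Plek2 are high in sample 29, Pbsn and Spmip7 in samples 28 and 30, A1bg in sample 32, and Afp, Igf2 and Mdm2 in sample 36.

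The near-identical samples 28 and 30 shared their own pattern. Pbsn, probasin, a lipocalin best known from rat prostate, was 15.06 and 14.61 in them and at most 11.29 in the other 7 aHCC. Spmip7, a sperm microtubule gene, was 11.26 and 11.00 in them and at most 7.65 elsewhere. Both calls against control were lost when the pair was averaged and counted as 1 sample (Pbsn 1.29, adjusted p = 0.0874, and Spmip7 0.54, adjusted p = 0.111, by limma). Krt19 was the feature that lay more than 1 log2 unit below the other 7, and 24 features lay as far above them. Car2 (14.54 and 14.49) and Cryab (12.95 and 13.10) were at their highest in this pair, and Pklr, which fell in the group, was 11.51 and 11.42 in the pair, within the 11.18 to 12.60 of the controls. The flavin monooxygenase Fmo1, which did not pass in the group (−0.72, adjusted p = 0.323 by limma), was 12.98 and 12.94 in the pair, but highest in sample 29 (13.20) and lowest in sample 36 (8.44).

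Sample 36 had 12 features more than 2 log2 units above the other 8 aHCC, 11 of them named. Afp was 13.94 and Igf2 11.66, and 7 others, Nup107, Mdm2, Cnot2, Cct2, Slc35e3, Rab3ip and Mdm1, are neighbours on rat chromosome 7 in the gene order of GRCr8. Over the 23 tested genes from Nap1l1 to Llph, the median excess of sample 36 over the median of 7 other aHCC (sample 29 left out) was 1.60. In this stretch 16 genes exceeded it by more than 1 log2 unit, and in 18 the level of sample 36 was above every one of those 7. The nucleoporin Nup107 was 12.70 and at most 8.93 in the other 8, the chaperonin subunit Cct2 was 14.97 and at most 12.28, and Mdm2 was 12.47 and at most 9.76. The 5 genes of the stretch within 0.5 of the others, Phlda1, Ptprr, Frs2, Ifng and Irak3, lay at 7.88 or below in sample 36 and those 7. The 18 flanking tested genes differed by −0.79 to 0.76, and some of them, such as Pawr (0.70) and Cdk4 (0.76), were also above every one of those 7. Over all windows of 5 neighbouring tested genes, the highest median excess was 3.44 in sample 36. It was 3.24 in sample 29 (chromosome 11), and 2.10 and 2.05 in samples 34 and 35 (chromosome 5). The stretch was chosen after its values were seen, and DNA was not measured.

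**Figure D5:**
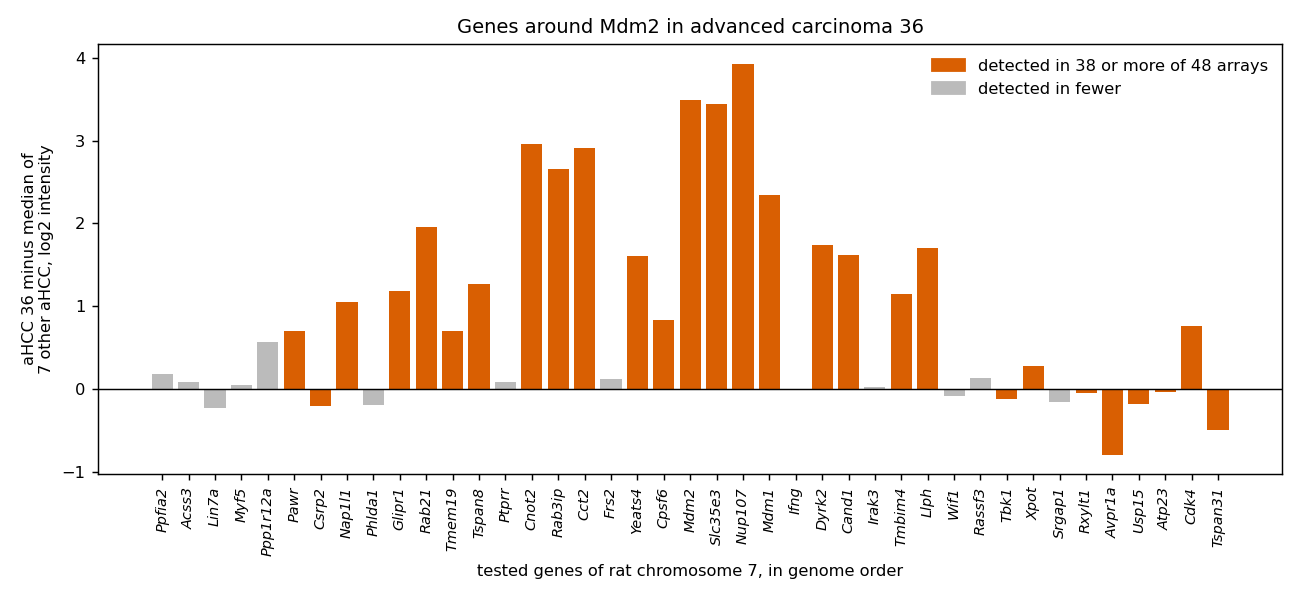
Log2 intensity of aHCC 36 minus the median of 7 other aHCC (sample 29 left out) for tested genes of rat chromosome 7 in genome order (GRCr8), 1 bar per gene, orange where the gene was detected in 38 or more of 48 arrays and grey otherwise. Excesses of more than 1 lie between Nap1l1 and Llph, the highest at Nup107, and the flanking genes lie between −0.79 and 0.76.

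Read against early carcinomas, the advanced ones differed directly in 2134 features (15.8%), 994 higher (7.37%) and 1140 lower (8.46%), and in 3085 without sample 29 (22.9%). Igfbp2 (+2.39, adjusted p = 0.000229 by limma), Gnmt (+1.72, adjusted p = 0.00492 by limma) and Fabp4 (+1.43, adjusted p = 0.00625 by limma) were higher in aHCC, and Abcc3 (−1.21, adjusted p = 0.0186 by limma) and Lox (−1.06, adjusted p = 0.0196 by limma) were lower. Of the cytochrome P450 genes 14 of 34 were higher in aHCC and 0 lower (22 and 0 without sample 29). Of 29 genes of the unfolded protein response 9 were higher and 1 lower, and of 10 macrophage markers 4 were higher and 0 lower (6 and 0 without sample 29). Of 28 extracellular matrix genes 2 were higher and 11 lower. Of 36 NRF2 targets 1 was higher and 9 were lower (2 and 13 without sample 29), and of 12 foci markers 0 were higher and 2 lower (0 and 4 without sample 29). The 5 eHCC have sample numbers 38 to 45, in another stretch of 12, next to controls 46 to 48, and stage and stretch cannot be told apart in the direct reading.

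With each group set against its own 3 controls, 1 feature differed (0.00742%, with 1257 at an unadjusted p under 0.05). It was Lims1, an adaptor of integrin adhesions, lower in aHCC than in eHCC. Without sample 29, 2 features differed, both lower (0.0148%). Lims1 lay between 7.34 and 7.76 in aHCC and between 8.50 and 9.29 in eHCC, and the difference of the differences was −1.38 (adjusted p = 0.0254 by limma). In controls it lay between 6.94 and 7.39 and was not detected, and aHCC were above them by 0.29 (adjusted p = 0.0450 by limma). The adenomas of the series, also of 10 months and in the stretch of the eHCC, lay between 8.29 and 9.63. The difference is thus a higher level in the 10-month lesions, not a fall below control in aHCC. Among the genes followed throughout, A2m was higher in aHCC than in eHCC in the direct reading (+1.88, adjusted p = 0.0131 by limma), as was Afp (+1.00, adjusted p = 0.0483 by limma). Afp was 13.94 in sample 36, 9.00 to 10.90 in the other 8 aHCC and 9.48 to 10.13 in eHCC. The comparison with eHCC was not repeated without sample 36. Nfe2l2, the gene of NRF2 itself, was lower (−0.57, adjusted p = 0.0478, and −0.44, adjusted p = 0.0828, without sample 29, by limma). Gpx2 (−0.49, adjusted p = 0.545 by limma) and Krt19 (−0.71, adjusted p = 0.646 by limma) did not pass. For Gstp1, at up to 15.54 in aHCC and 15.51 in eHCC, the top of the scale leaves no room for a difference between the stages to show. With each group set against its own 3 controls, A2m had an adjusted p of 0.549, Afp one of 0.586 and no member of the 37 lists passed (limma).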

How the data were processed

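Each probe of each array had an intensity and a detection p-value in the deposited table. BeadStudio 3.0.19.0 is the tool that the submitters' processing notes name. The deposited intensity values, on a linear scale, had medians of 159.0 to 159.6 in all 48 arrays and a lowest value of 96.8, as quantile normalization without background subtraction would leave them, although titled non-normalized; no label or header names such a step. The second deposited table was identical (largest difference 0). The deposited detection p-value was used to keep 13679 probes with p under 0.05 in at least 4 arrays.

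Intensities were taken to log2 with no further step. The probe with the highest mean stood for each gene (189 genes had more than 1 kept probe); of 22523 probes 13793 had 1 symbol and 8730 none, and 13752 matched the RefSeq GRCr8 table by gene ID, which changed 0 symbols. All 6 groups entered 1 linear model in limma 3.58.1 (R 4.3.3), with Benjamini-Hochberg adjustment over 13479 features and a threshold of 0.05, two-sided. Levels are means ± SD, differences carry SE, and a gene detected in 0 arrays of a group has a lower bound for its fold. On simulated data with the same 13479 features, 96 of 100 changes of 1 log2 unit and 99 of 100 of 2 were recovered, with 13 false calls. The simulated noise was normal and independent between arrays, with no difference between stretches, no shared animal and no outlying sample. The false calls therefore check the code and do not measure error in the real comparisons. The number of arrays limits the precision.

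The carcinomas, the 37 gene lists and the naming rule were chosen with earlier results of these data known; no set test was run. The rule named the 12 largest rises and falls that passed against 10 controls, against controls 25 to 27 and without sample 29, the 3 largest rises and falls of each described list, and Gstp1, Gpx2, A2m, Krt19, Afp, Nfe2l2 and Keap1. It also named the 8 genes with the largest SD among the 9 aHCC, the genes that differed from eHCC under both readings, and the 6 largest gaps of sample 29 in each direction. The 8 genes with the largest SD among the 8 aHCC other than sample 29 were added to the named genes after seeing the data. Provisional symbols were left out. Other genes, and the patterns of samples 28, 30, 32 and 36, were chosen after their values were seen. Alternatives were neqc background correction, the choice of controls, leaving out samples, array weights, moderation with an intensity trend, the detection filter, the stretch of 12 sample numbers as a block and averaging samples 28 and 30.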

Additional observations from a re-analysis of the deposited data

Results flagged for a closer look

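Single samples lay apart from the rest of their group, by Dixon's test, in 51 of 224 checks of 112 named genes in 2 groups, and sample 29 accounted for 35 of them. Chance gives about 1 in 20, but 23 of these genes were named for their spread among aHCC or for their gap in sample 29, so the total cannot be set against that share. The other 89 genes gave 31 in 178 checks, 20 of them in sample 29; many were named for large differences and they are not independent of each other. It was high for Defb1 (15.06), S100a6 (14.98), Plek2 (14.00), Tff1 (13.98), Ms4a8 (13.09), Prap1 (13.09), Klf5 (12.76) and Gkn2 (12.60), which are mostly genes of surface epithelia. Among drug, fatty acid and bile acid enzymes and carriers it was low for Cyp4a2 (7.08), Cyp3a2 (7.20), Cyp26a1 (7.39), Cyp2c7 (7.39), Cyp2c12 (7.41), Cyp8b1 (7.74), Cyp4a3 (7.74), Slco1b2 (7.04), Slc27a5 (7.77) and the receptor Nr1h4 (7.84). It was low for the secreted proteins F11 (7.18), Serpind1 (7.22), Apoa2 (7.82), Spink1l (7.91), Crp (7.97), Serpina3c (8.23), Vtn (8.59), Gc (8.98), Pon1 (7.75) and Tgfbi (7.84), and for Agxt (7.12), Thrsp (7.30), G6pc1 (7.52), Fads1 (7.60), Scd (7.81), Sesn1 (8.41) and Gsta3 (10.19). Gsta3, although lowest there, was still above every control.

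Sample 36 was high for Afp (13.94), Igfbp2 (12.56), Mdm2 (12.47) and Igf2 (11.66), and sample 32 for A1bg (11.30). Among controls, sample 27 stood apart in 5 genes, high for Krt19 (8.76), Cryab (8.51) and Fas (7.80) and low for Cyp2c7 (14.62) and Cyp8b1 (13.14). Other controls stood apart in 1 gene each: sample 26 for Angptl4 (10.08), 14 for Cyp2c12 (8.80), 12 for Scd (14.53), 25 for Scd2 (7.49), 47 for Tgfbi (10.61) and 13 for Vtn (14.63).

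Advanced and early carcinomas differed in 2134 features when compared directly by limma, and in 1 when each was set against its own 3 controls, Lims1, with a difference of −1.38 on the log2 scale. The difference of differences rests on 3 controls a side and has a wider error than the direct reading.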

How the results depend on the processing

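No paired analysis was possible because the sample numbers run through the series and no number is shared between groups. The 5120 features that differed between aHCC and control became 1935 against controls 25 to 27, 2411 with sample 29 also left out, 939, 1172 and 1071 with control 25, 26 or 27 left out of those 3, and 2077 with the stretch of 12 sample numbers as a block, all of them readings with fewer controls beside the carcinomas. Under the other alternatives the count was 4306 to 6072. The 1935 became 939 to 1172 without 1 of the 3 controls, and the 5682 without sample 29 became 2411 against controls 25 to 27. The 2134 between aHCC and eHCC became 1 against own controls, and 0 to 6 with 1 eHCC also left out (limma). Of 112 named genes, 100 of which passed, 112 kept direction and side of the threshold after neqc, 83 against controls 25 to 27 (28 no longer passed) and 104 without sample 29.

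No difference whose sign turned passed under that alternative. Against controls 25 to 27 Afp was 0.0092 (0.0092 with the block, and 0.022 to 0.025 without control 27 or 26). Leaving out samples 29, 32 and 36 in turn, Afp ran from −0.51 to 0.11, Gkn2 from −0.052 to 0.60, Ms4a8 from −0.27 to 0.40, Serpina3c from −0.78 to 0.098, Tff1 from −0.018 to 0.83 and Igf2 from −0.12 to 0.40. The sign turned without sample 36 for Igf2 and without sample 29 for the others; with controls 25 to 27 and without sample 29 Afp was 0.23, Gc 0.020, Ms4a8 −0.27 and Serpina3c 0.16. With array weights, which gave sample 29 a weight of 0.068, Gkn2 was −0.019, Igf2 −0.040, Ms4a8 −0.23 and Serpina3c 0.095. Without sample 36, a choice made after seeing the data as were the omission of sample 32 and the averaging of samples 28 and 30, Klf5 (1.02) and Plek2 (1.00) no longer passed. Against controls 26 and 27, Igfbp2 was −0.032, Onecut1 0.17 and Sult2a6 −0.064. The cause was not tested. All 74 list counts stayed within 1.5 times when probes of a gene were averaged. Background in the signal limits what can be read of dim genes.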

Other observations

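The counts below stand beside the shares of all features called, 19.2% higher and 18.8% lower (7.29% and 7.07% against controls 25 to 27). Of 18 hepatocyte secretory products 9 fell and 0 rose (4 and 0 against controls 25 to 27), among them the retinol carrier Rbp4 (−1.13) and the inter-alpha-trypsin inhibitor chain Itih1 (−1.85), while Ahsg (−0.28) and Ambp (−0.36) did not pass. Genes of the periportal zone, near the portal vein, fell in 10 of 12 cases and rose in 0 (5 and 0 against controls 25 to 27), with histidase Hal at −1.85. Of 16 perivenous genes 7 fell and 2 rose (2 and 2 against controls 25 to 27; 4 and 2 without sample 29), and the ammonium carrier Rhbg rose by 2.44. Of 17 genes of cholesterol synthesis 7 fell and 0 rose (2 and 0 against controls 25 to 27), with Sc5d at −1.23. Among 6 genes of the pentose phosphate pathway and NADPH supply 2 rose, the transaldolase Taldo1 (+1.18) and Rpia (+0.55), and 2 fell (2 and 0 against controls 25 to 27).

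Of 22 iron genes 6 rose and 7 fell (3 and 4 against controls 25 to 27); the iron exporter Slc40a1 (+0.93) and the ferroxidase Heph (+1.32) rose, and hepcidin, Hamp, which lowers that exporter, fell by 0.99. Of 22 adhesion and junction genes 4 rose and 9 fell (0 and 3 against controls 25 to 27); the liver-intestine cadherin Cdh17 fell by 3.26, the hepatocyte connexin Gjb1 by 1.02 and E-cadherin, Cdh1, by 0.55. Of 29 genes of the unfolded protein response 5 rose and 8 fell (3 and 1 against controls 25 to 27); the chaperone Hspa5 fell by 0.29 and the serine synthesis enzyme Phgdh rose by 2.29. Of 17 TGF-beta and YAP genes 5 rose and 4 fell (1 and 3 against controls 25 to 27), with follistatin Fst (+1.53) and Ccn2 (+1.22) higher and Egfr (−1.06) lower. Of 15 angiogenesis genes 5 rose and 0 fell (2 and 0 against controls 25 to 27), with the endothelial tip cell gene Esm1 at +2.18 and Vegfa (−0.27) not passing. Of 12 antigen presentation genes the peptide transporters Tap1 (−0.57) and Tap2 (−0.38) fell and 0 rose (0 and 0 against controls 25 to 27); without sample 29, 4 rose and 2 fell. In sample 29 the list's median was −0.74. Against 10 controls, the rises in the adhesion and unfolded protein lists were no more frequent than over all features (19.2%). Nor were the falls in the antigen presentation list (18.8% over all features).

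Detection itself changed for a few genes. Detected in 0 of 10 controls and in 8 or 9 of 9 aHCC were 73 of 13479 features, 56 of them named. Besides Defb1 they held the trefoil peptide Tff3 (8.75 ± 0.93 SD), the protease inhibitor Spint1 (8.41 ± 0.52 SD), the matrix protease Mmp7 (7.74 ± 0.23 SD) and the cyclin Ccna2 (8.33 ± 0.66 SD). Most lay within 1 or 2 log2 units of background. Detected in all 10 controls and 0 of 9 aHCC were 4 features, 3 of them named: Gimd1 (9.06 ± 0.74 SD in controls), the NADPH oxidase Nox4 (8.40 ± 0.39 SD) and the ephrin Efna5 (7.78 ± 0.23 SD). The rule for gains allowed 1 exception and that for losses none. More probes were also detected per aHCC (median 9715) than per control (median 9252). The counts of gains and losses therefore cannot be set against each other.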
